A study of Homo sapiens with 8 samples.

Results

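The Notch genes described here are 3 receptors (NOTCH1, NOTCH2, NOTCH3), 3 ligands (JAG1, JAG2, DLL1), the sugar transferase LFNG, the coactivator MAML2 and the target genes HES1 and HEY1. They were chosen by name, with earlier results of these data known. On the arrays 27 probe sets carried only one of these 10 symbols, and 24 of them passed a filter on dim probe sets. The brightest probe set over all arrays stood for its gene, and all 10 genes were among the 14180 tested, of 19775 genes with such a probe set.

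The samples were sublines of KYSE180 and KYSE30, both established cell lines of human esophageal squamous cell carcinoma. Cells of each line had gone through 4 rounds of selection for crossing a transwell membrane, a porous filter that cells can migrate through, and the comparison asks how sublines of different motility differ. The 4 groups were 180D (KYSE180 cells that crossed, with stronger motility), 180U (KYSE180 cells that did not, with weaker motility), 30D (KYSE30 cells that crossed) and 30U (KYSE30 cells that did not), with 2 arrays each. The 8 sublines came from 4 parental populations, each giving 1 D and 1 U subline, and were grown for 2 passages after harvest before RNA was taken. The labels name no drug treatment or genetic change in any group, and unselected parental cells were not analysed here. The replicates were separately selected populations of 1 line each. P-values for changes within a line, and for the difference between these changes, thus measure the spread between such populations. In the additive fit over both lines the spread also holds any difference between the lines' changes.

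Notch receptors sit in the cell membrane and are activated by Jagged and Delta ligands on a neighbouring cell. Ligand binding leads to cleavage by ADAM proteases and by gamma-secretase, and the freed intracellular domain enters the nucleus, where it joins the DNA-binding protein RBPJ and a Mastermind coactivator (the MAML family) to switch on targets such as the HES and HEY repressors. In stratified squamous epithelium, which includes the esophageal lining, Notch signalling is known for moving basal cells towards differentiation, and NOTCH1 is often mutated in squamous cancers of the esophagus. The arrays measured RNA, not cleaved receptor.

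Values are log2 intensities on which 1 unit is a doubling, and levels of different genes cannot be set against each other because each probe set has its own affinity. The filter value was 4.46. Over the 14180 genes tested the correlation between arrays was 0.9969 to 0.9982 within a group. It was 0.9922 to 0.9953 for D with U of 1 line, and 0.8599 to 0.8688 when the line differed. The 180D replicate 1 array lay outside the other 7 in both RNA quality measures: the 3′ minus 5′ signal was 1.92 there and 1.06 to 1.42 on the others for ACTB, and 0.153 and 0.101 to 0.140 for GAPDH. The calls on HEY1 and DLL1 in KYSE180 are also given without this array. Of 9 squamous epithelial markers measured, 7 were above the filter on all arrays. KRT5 was among these but lay near the filter in KYSE30, at 4.84 in 30D and 4.63 in 30U. The basal keratin KRT14 was high in KYSE180, at 13.38 in 180D and 13.62 in 180U, and below the filter in KYSE30, at 4.13 in 30D and 3.54 in 30U. Of other cell types, 4 of 8 fibroblast and 4 of 6 immune markers were below the filter on all arrays. So were 2 of 8 endothelial and 2 of 8 neural or melanocytic markers. The pan-leukocyte gene PTPRC was among those below it. Above it on all arrays were 4 of 8 fibroblast, 1 of 6 immune and 4 of 8 endothelial markers. The same held for 5 of 8 neural or melanocytic markers, among them TUBB3 at 11.72 in 180D and 11.86 in 30D. These counts therefore do not tell cell types apart. In bulk RNA, fewer cells expressing a gene and less RNA per cell cannot be told apart. With 2 arrays per group, D and U arrays of a gene can fail to overlap without a difference between the groups. How often they did so over all genes was not counted, so such cases below only describe the arrays.

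**Figure D1:**
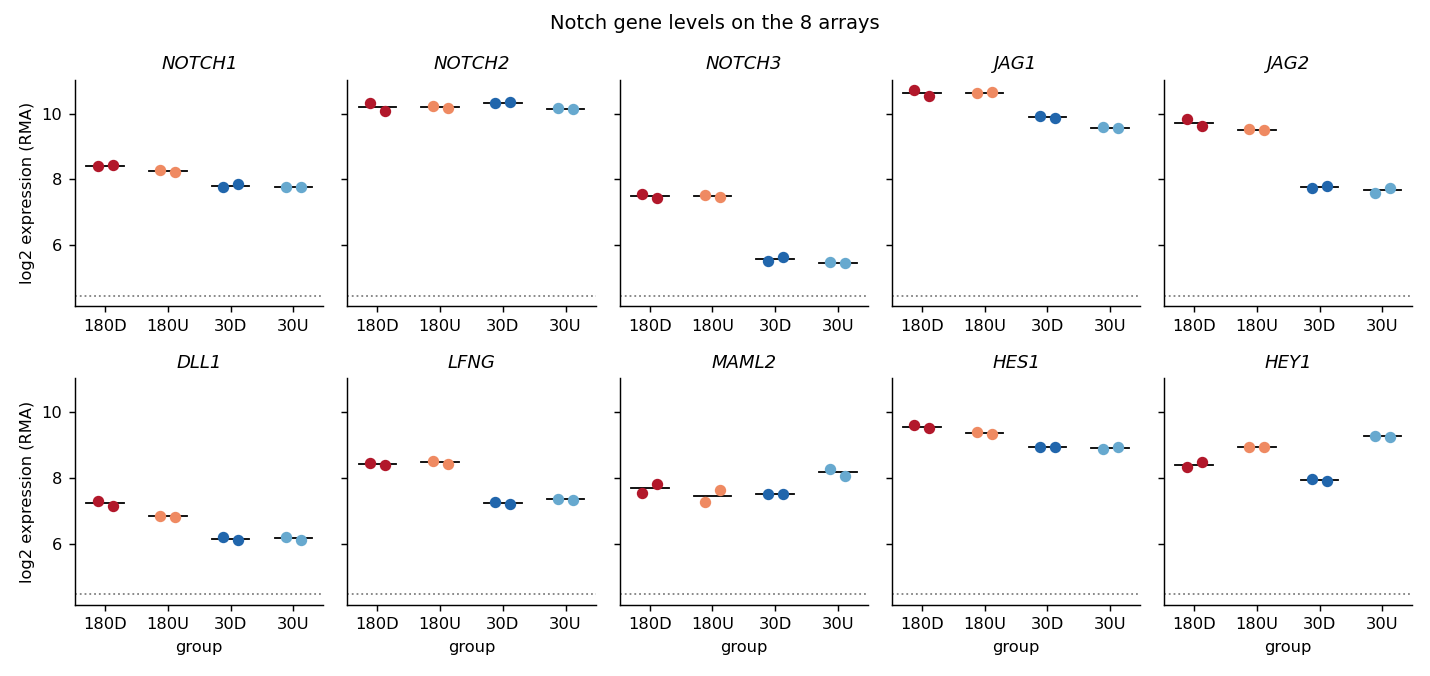
Log2 RMA level (vertical axes, the same scale in each panel) of the 10 Notch genes, one panel per gene, on each of the 8 arrays. Points are arrays, bars are group means, and the dotted line is the filter value of 4.46. HEY1 is lower in D than in U arrays of both lines, while NOTCH3, JAG2 and LFNG separate the lines and differ little between D and U.

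In KYSE30, 3 of the 10 genes passed the threshold between 30D and 30U (limma, adjusted p under 0.05): HEY1 and MAML2 were lower and JAG1 was higher in 30D. Over all 14180 genes 8.42% were called higher and 8.12% lower in this comparison, or 16.5% in either direction. In KYSE180, 2 of the 10 passed between 180D and 180U: HEY1 was lower and DLL1 was higher in 180D. There 2.55% of all genes were called higher and 1.21% lower, or 3.75% in either direction. Of the 532 genes called in KYSE180, 361 were higher in 180D; with every array centred on its median, 505 were called and 269 of them were higher. The median change of the 10 genes was 0.02 in KYSE30, against 0.01 over all genes tested, and 0.08 in KYSE180, against 0.02 over all genes.

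HEY1, a basic helix-loop-helix repressor switched on by Notch, was the gene of this set that fell in both lines. It read 8.33 and 8.48 on the 180D arrays and 8.93 and 8.94 on the 180U arrays. In KYSE30 it read 7.97 and 7.90 on the 30D arrays and 9.28 and 9.25 on the 30U arrays. All D arrays lay below all U arrays, also across the lines, and no 2 of the 4 groups overlapped: 30U was highest, then 180U, 180D and 30D. How many of all genes show such an order was not counted, so it only describes the arrays. HEY1 was 1.44-fold lower in 180D than in 180U (log2 change -0.53 ± 0.06 (SE), limma adjusted p = 0.00584) and 2.53-fold lower in 30D than in 30U (-1.34 ± 0.06, adjusted p = 7.45e-05). By size of change it ranked 249th of 14180 genes in KYSE180 and 32nd in KYSE30. The fall was smaller in KYSE180 than in KYSE30 by 0.81 ± 0.09 in a direct test of the difference (limma adjusted p = 0.00251). Within the parental populations the D minus U difference was -0.46 and -0.60 in KYSE180 and -1.32 and -1.36 in KYSE30.

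A second probe set of HEY1 gave changes of -0.52 in KYSE180 and -1.25 in KYSE30 when each probe set was fitted by itself (limma adjusted p = 0.00645 and 9.68e-05, over 26781 probe sets). Both falls and the difference between them passed the threshold under all alternatives tried, with an adjusted p of 0.00014 to 0.0426 for the change in KYSE180 and 2.6e-08 to 0.00225 for that in KYSE30. Without the 180D replicate 1 array the change in KYSE180 was -0.46 (adjusted p = 0.0281). In an additive fit over both lines HEY1 was 1.91-fold lower in D than in U sublines (-0.93 ± 0.15, limma adjusted p = 0.034), and it was the 1 gene of the 10 called there, where 0.557% of all genes were called higher and 0.317% lower (0.874% in either direction). Of the 124 genes called over both lines 79 were higher, and of 126 with arrays centred on their median 63 were higher. The call on HEY1 over both lines was lost when the fit blocked on parental population (adjusted p = 0.186, and 0.0174 to 0.186 over the alternatives) and without any 1 array other than 180D replicate 2.

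HES1, the other classical target, encodes a repressor of the same family. It read 9.61 and 9.51 on the 180D arrays and 9.39 and 9.35 on the 180U arrays, which did not overlap. On the 30D arrays it read 8.93 and 8.95 and on the 30U arrays 8.90 and 8.93, which overlapped. HES1 thus had its highest levels in 180D and 180U, while 30D and 30U did not differ beyond their spread. The log2 change was 0.19 ± 0.06 in 180D against 180U (95% confidence interval 0.06 to 0.32, limma adjusted p = 0.126) and 0.02 ± 0.06 in 30D against 30U (-0.11 to 0.15, adjusted p = 0.831), so neither passed the threshold. A fit with an intensity trend called the KYSE180 change (adjusted p = 0.0426), while a second probe set of HES1 moved by -0.03 in KYSE180 and -0.02 in KYSE30.

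**Figure D2:**
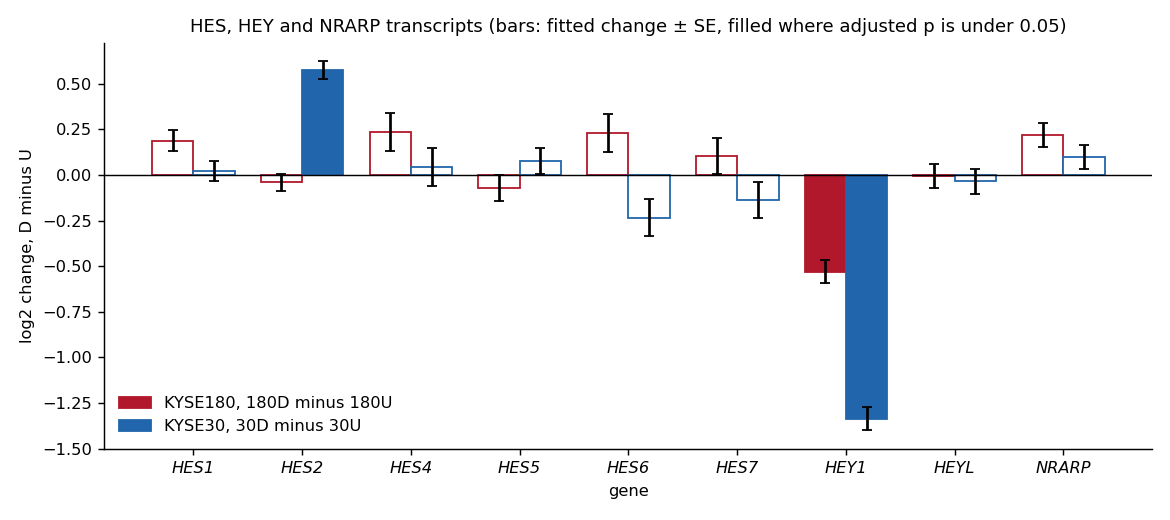
Fitted log2 change between D and U sublines (vertical axis, bars starting at 0 with error bars of 1 SE) of the tested HES and HEY genes and of the feedback gene NRARP, in KYSE180 (red) and KYSE30 (blue). Filled bars passed the adjusted threshold: HEY1 at -0.53 in KYSE180 and -1.34 in KYSE30, and HES2 at 0.58 in KYSE30.

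The promoter of HES1 carries a known pair of RBPJ sites, and it is shown beside those of HES4 and HES2, of which HES2 changed in KYSE30. Each sequence is the 150 bases before the gene start from RefSeq (GRCh38.p14), written 5′ to 3′ on the strand of the gene, and capitals mark TGGGAA, the core of the RBPJ site. HES1 lies on the plus strand (chr3:194135998-194136147), HES4 on the minus strand (chr1:1000098-1000247) and HES2 on the minus strand (chr1:6419920-6420069).
HES1 promoter: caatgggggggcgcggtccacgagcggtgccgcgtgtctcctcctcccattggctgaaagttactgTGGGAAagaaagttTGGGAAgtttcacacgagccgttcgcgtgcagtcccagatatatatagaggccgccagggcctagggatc
HES4 promoter: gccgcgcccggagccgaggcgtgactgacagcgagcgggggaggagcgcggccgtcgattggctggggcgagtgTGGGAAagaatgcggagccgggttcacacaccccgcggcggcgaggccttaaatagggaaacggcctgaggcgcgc
HES2 promoter: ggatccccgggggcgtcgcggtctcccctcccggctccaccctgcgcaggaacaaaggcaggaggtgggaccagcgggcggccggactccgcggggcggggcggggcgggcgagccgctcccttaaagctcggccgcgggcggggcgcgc

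The core was found at 2 places in the HES1 stretch, at 1 in that of HES4 and at none in that of HES2. Over the 250 bases before the start, on both strands, TGGGAA was present in 7321 of 35116 promoters (20.85%), and CACNAG, the N box that HES proteins bind, in 11251 (32.04%). The 8 described genes with a promoter entry used here had 9 entries, of which TGGGAA was found for 2 genes (HES1 and LFNG) and CACNAG for 4. Of 9 genes of the HES, HEY and NRARP group 5 had TGGGAA and 2 had CACNAG. These matches describe the letters only. HES1, HES4 and HES2 did not move alike: HES2 was 1.49-fold higher in 30D than in 30U (0.58 ± 0.05, limma adjusted p = 0.000637), while neither HES1 nor HES4 passed in either line.

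Among the receptors, no change between D and U sublines passed the threshold in either line. NOTCH1 read 8.42 and 8.44 on the 180D arrays against 8.29 and 8.22 on the 180U arrays, and 7.77 and 7.85 on the 30D arrays against 7.78 and 7.78 on the 30U arrays. The KYSE180 groups did not overlap and the KYSE30 groups did. The log2 change of NOTCH1 was 0.17 ± 0.06 in 180D (95% confidence interval 0.04 to 0.30, limma adjusted p = 0.164) and 0.03 ± 0.06 in 30D (-0.10 to 0.16, adjusted p = 0.795). NOTCH3 read 7.56 and 7.43 on the 180D arrays against 7.53 and 7.46 on the 180U arrays, and 5.53 and 5.63 on the 30D arrays against 5.47 and 5.45 on the 30U arrays. Its 4 KYSE180 arrays thus lay about 2 log2 units above its KYSE30 arrays. The 30D and 30U arrays of NOTCH3 did not overlap and the KYSE180 groups did. Its changes were 0.00 ± 0.07 in 180D (-0.16 to 0.16, adjusted p = 0.993) and 0.12 ± 0.07 in 30D (-0.04 to 0.27, adjusted p = 0.299).

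NOTCH2, of the 3 receptors the one whose level was most alike in the 2 lines, read 10.32 and 10.10 on the 180D arrays, 10.25 and 10.18 on the 180U arrays, 10.33 and 10.35 on the 30D arrays and 10.17 and 10.13 on the 30U arrays. The 30D and 30U arrays did not overlap, and the change in 30D was 0.19 ± 0.08 (limma adjusted p = 0.153, and 0.0414 to 0.394 over the alternatives, 2 of which called it). In 180D the change was 0.00 ± 0.08 (adjusted p = 0.984). Other NOTCH2 probe sets past the filter changed in 30D by 0.22, -0.01 and -0.01, and none passed the threshold when fitted by itself. The probe sets used for NOTCH2 and JAG1 are of a class that can share signal with similar genes. NOTCH2 has near-identical NOTCH2NL copies in the human genome, so its level may include theirs.

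Of the ligands, JAG1 was higher in 30D than in 30U and DLL1 higher in 180D than in 180U. JAG1, a Jagged ligand, read 9.92 and 9.88 on the 30D arrays and 9.60 and 9.56 on the 30U arrays, without overlap. This was a 1.25-fold difference (0.32 ± 0.07, limma adjusted p = 0.0198), with 0.33 and 0.32 in the parental populations. In KYSE180 it read 10.72 and 10.55 on the 180D arrays and 10.63 and 10.65 on the 180U arrays, which overlapped (0.00 ± 0.07, adjusted p = 0.995). The direct test of the difference between the lines' changes gave -0.32 ± 0.10 (adjusted p = 0.0752), which did not pass, though 5 of 15 alternatives called it. Of 4 other JAG1 probe sets past the filter, a bright one gave 0.30 in 30D (adjusted p = 0.0329 over 26781 probe sets), and the others gave 0.36, 0.18 and 0.04 and did not pass (adjusted p = 0.24, 0.195 and 0.789). In 180D these 4 probe sets changed by -0.05, -0.48, -0.14 and -0.11, and none passed. The KYSE30 call was kept with the population block (adjusted p = 0.0382) and lost without any 1 of the 4 KYSE30 arrays (adjusted p = 0.081 to 0.115, against 0.00102 to 0.115 over all alternatives).

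DLL1, a Delta ligand, read 7.31 and 7.15 on the 180D arrays and 6.85 and 6.82 on the 180U arrays, without overlap. On the 30D arrays it read 6.20 and 6.11 and on the 30U arrays 6.22 and 6.12, which overlapped. DLL1 was 1.32-fold higher in 180D than in 180U (0.40 ± 0.07, limma adjusted p = 0.0321) and moved by -0.01 ± 0.07 in 30D (adjusted p = 0.937). The difference between these changes was 0.41 ± 0.10 (adjusted p = 0.043), a call lost in 11 of 15 alternatives (0.0225 to 0.168), among them the population block (0.0694). The call in KYSE180 was lost in 11 of 16 alternatives (adjusted p = 0.0153 to 0.246), among them the population block (0.0737), 7 of the 8 fits without 1 array and the mean of both probe sets (0.17). Without the 180D replicate 1 array the change was 0.32 (adjusted p = 0.12). The second, dim probe set of DLL1 moved by -0.05 (adjusted p = 0.784).

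JAG2, a ligand expressed in many epithelia, read 9.83 and 9.63 on the 180D arrays, 9.54 and 9.50 on the 180U arrays, 7.75 and 7.79 on the 30D arrays and 7.59 and 7.75 on the 30U arrays. The KYSE180 groups did not overlap, but neither its change of 0.21 ± 0.08 in 180D (limma adjusted p = 0.229) nor that of 0.10 ± 0.08 in 30D (adjusted p = 0.49) passed. LFNG, the Fringe enzyme that adds a sugar to Notch receptors and tunes which ligands they answer to, read 8.45 and 8.41 on the 180D arrays, 8.51 and 8.44 on the 180U arrays, 7.28 and 7.22 on the 30D arrays and 7.36 and 7.34 on the 30U arrays. The 30D and 30U arrays of LFNG did not overlap and the KYSE180 groups did. Its changes were small in both lines, at -0.05 ± 0.05 in 180D (adjusted p = 0.682) and -0.10 ± 0.05 in 30D (adjusted p = 0.251).

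MAML2, a Mastermind coactivator of the Notch transcription complex, fell in 30D. It read 7.51 and 7.52 on the 30D arrays and 8.27 and 8.08 on the 30U arrays. In KYSE180 the arrays spread widely and overlapped, at 7.55 and 7.82 in 180D and 7.28 and 7.65 in 180U. MAML2 was 1.58-fold lower in 30D than in 30U (-0.66 ± 0.14, limma adjusted p = 0.0196) and ranked 292nd of 14180 by size of change there. In 180D the change was 0.22 ± 0.14 (adjusted p = 0.431), with 0.54 and -0.09 in the 2 parental populations, and the difference between the lines' changes was 0.88 ± 0.20 (adjusted p = 0.0303). The call in KYSE30 was lost with the population block (adjusted p = 0.0591) and without any 1 of the 4 KYSE30 arrays (0.00153 to 0.109 over the alternatives). The block also ended the call on the difference between the lines (adjusted p = 0.0836, and 0.0028 to 0.0973 over the alternatives).

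**Figure D3:**
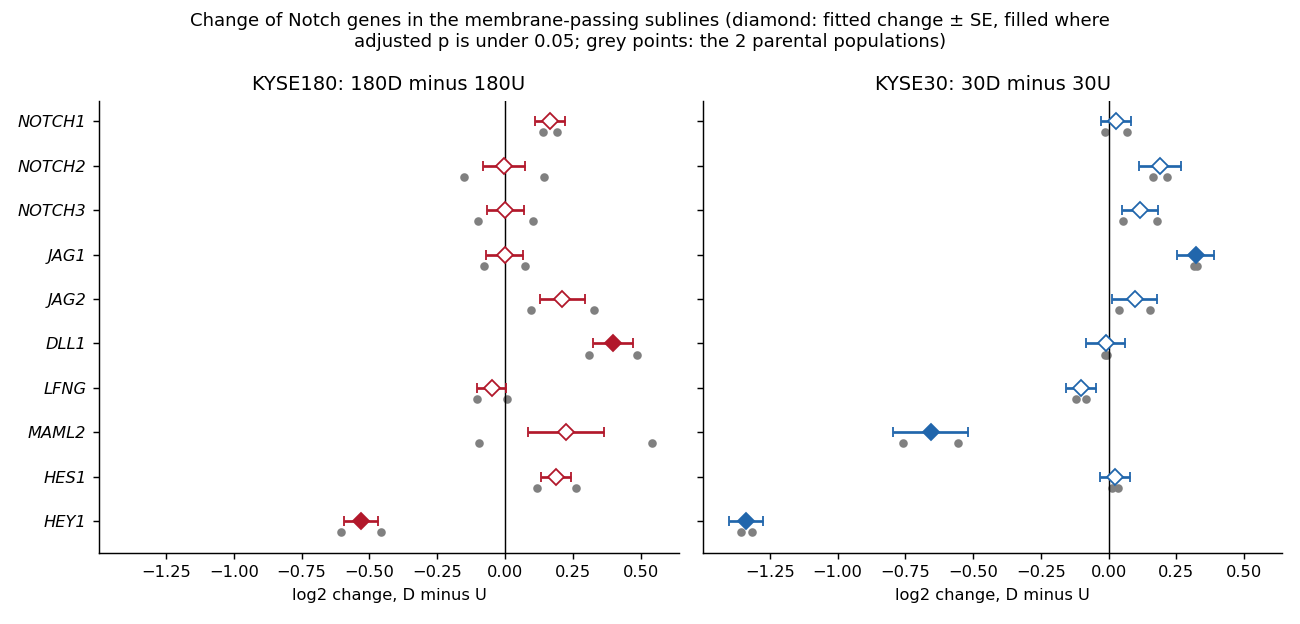
Log2 change between D and U sublines (horizontal axis) of the 10 Notch genes in KYSE180 and in KYSE30. Diamonds are fitted changes with bars of 1 SE, filled where the adjusted threshold was passed, and grey points are the differences within each parental population. HEY1 lies left of 0 in both lines, MAML2 at -0.66 in KYSE30, JAG1 at 0.32 in KYSE30 and DLL1 at 0.40 in KYSE180.

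The direct test between the lines' changes called 3 of the 10 genes, HEY1, MAML2 and DLL1, each with a more positive change in KYSE180. With the population block 1 was called, HEY1 (adjusted p = 0.0165). Over all genes 12.2% were called in this test, 6.94% more positive and 5.21% more negative in KYSE180.

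For 7 of these genes the difference between the 2 lines was larger in size than both D minus U changes. For HEY1, MAML2 and NOTCH2 it was smaller than the change in KYSE30. Over all genes too, more were called between the lines than between D and U sublines (16.5% in KYSE30 and 3.75% in KYSE180). In an additive fit of line and subline type, 7 of the 10 genes were higher in KYSE180 than in KYSE30 and none was lower, while over all genes 36.1% were higher and 31% lower (67.1% called in either direction). The median difference of the 10 genes was 0.71, against 0.05 over all genes tested. NOTCH3 was 3.93-fold higher in KYSE180 (1.97 ± 0.05, limma adjusted p = 1.13e-08), JAG2 3.75-fold (1.91 ± 0.06, adjusted p = 3.35e-08) and LFNG 2.22-fold (1.15 ± 0.04, adjusted p = 7.26e-08). Smaller differences were those of JAG1 (1.86-fold), DLL1 (1.83-fold), NOTCH1 (1.46-fold) and HES1 (1.45-fold), with adjusted p of 9.42e-06, 3.15e-05, 1.55e-05 and 2.38e-05. For all 7 genes every KYSE180 array lay above every KYSE30 array, as for 33.8% of all genes tested, and the opposite held for 29.4%. NOTCH2 (-0.03 ± 0.07, adjusted p = 0.708), HEY1 (0.07 ± 0.15, adjusted p = 0.695) and MAML2 (-0.27 ± 0.18, adjusted p = 0.223) did not pass, and their arrays overlapped between the lines. For HEY1 and MAML2 this fit averaged line differences of opposite sign. The HEY1 mean was 8.94 in 180U against 9.27 in 30U, but 8.41 in 180D against 7.93 in 30D. For MAML2 the means were 7.46 in 180U against 8.17 in 30U, and 7.69 in 180D against 7.52 in 30D. Line differences within U or within D sublines were not tested.

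The count of 7 was the same under all 15 alternatives. Dim second probe sets separated the lines less, at 0.12 for NOTCH3, 0.15 for LFNG, 0.15 for NOTCH1 and -0.09 for DLL1, whereas the bright second probe sets of JAG2 and HES1 gave 1.88 and 0.50. With 1 line on each side, a difference between the lines is one between these 2 cell lines.

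**Figure D4:**
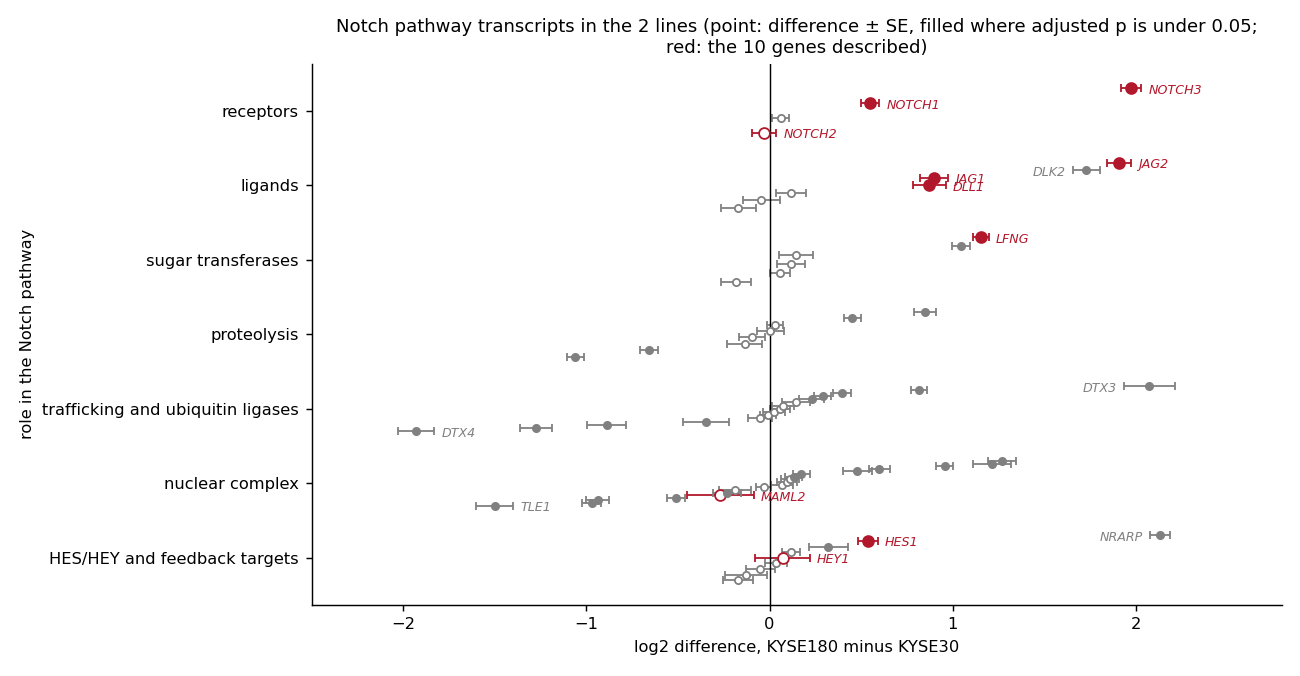
Difference between the lines (horizontal axis, log2, KYSE180 minus KYSE30, with bars of 1 SE) for the tested genes of 7 Notch pathway roles. Filled points passed the adjusted threshold, red points are the 10 genes described, and genes with large differences are named. NOTCH3, JAG2 and NRARP lie near 2, while DTX4 and TLE1 lie below -1.

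Beside the 10 genes, 66 of 76 other genes on lists of the pathway's parts and its keratinocyte targets were tested. Between 30D and 30U 8 of them were called higher, 5 lower and 53 did not pass, where 8.42% of all genes were called higher and 8.12% lower. Between 180D and 180U 1 was higher (FLG), 1 was lower (IVL) and 64 did not pass. Over all genes 2.55% were called higher and 1.21% lower in this comparison. FLG passed the filter only with its high 180D level. Over both lines none of the 66 was called by limma, against 0.874% of all genes. Between the lines 24 were higher in KYSE180, 14 were lower and 28 did not pass, where 36.1% of all genes were higher and 31% lower. With the 10 genes included, the receptors had no call of 4 in either line. The ligands had 2 calls of 7 in KYSE30 (JAG1 and DLL3, both higher) and 1 in KYSE180 (DLL1).

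Among ligands and sugar transferases, DLL3, a divergent Delta ligand, was higher in 30D (0.39 ± 0.07, limma adjusted p = 0.0137). EOGT (0.25, adjusted p = 0.0185) and MFNG (0.29, adjusted p = 0.0222), which add sugars to Notch, were also higher, 2 of 6 sugar transferases. Over all genes 8.42% were called higher and 8.12% lower in 30D. Among 8 genes of proteolysis, PSEN2, a catalytic subunit of gamma-secretase, was higher (0.39 ± 0.08, adjusted p = 0.0195), and ADAM17, a protease that sheds membrane proteins, was lower (-0.22, adjusted p = 0.0259). No sugar transferase and no gene of proteolysis passed in KYSE180, where 3.75% of all genes were called. Among 15 genes of trafficking and ubiquitin ligases, DTX3L was higher in 30D (0.30 ± 0.05, adjusted p = 0.0111), a call lost without any 1 KYSE30 array. The same held for EOGT, MFNG, PSEN2 and ADAM17. DLL3 lost its call without 3 of these 4 arrays in turn and in another alternative that kept all arrays. Its change was 0.16 to 0.48 over all alternatives, against 0.30 to 0.48 in fits without 1 array. The population block ended the calls on PSEN2 (adjusted p = 0.0598) and ADAM17 (adjusted p = 0.0678).

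The nuclear list had 1 gene higher and 3 lower of 18 in 30D, where 8.42% of all genes were called higher and 8.12% lower. TLE1, a Groucho corepressor that HES proteins recruit, was 1.38-fold higher (0.46 ± 0.05, limma adjusted p = 0.0022). The histone acetyltransferase CREBBP (-0.30 ± 0.05, adjusted p = 0.0117, lost without any 1 KYSE30 array), TLE4 (-0.29, adjusted p = 0.0328, lost likewise) and MAML2 were lower. TLE4 was named after its value was seen. No gene of this list passed in KYSE180, where 3.75% of all genes were called. The D minus U changes of TLE1 and HES2 were more negative in KYSE180 than in KYSE30 in the direct test, by -0.52 ± 0.07 and -0.62 ± 0.07 (limma adjusted p = 0.00656 and 0.00249).

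Of 9 tested genes of the HES, HEY and feedback list, HES2 rose and HEY1 fell in 30D, and only HEY1 passed in 180D. Over all genes 16.5% were called in 30D and 3.75% in 180D. HES4, HES5, HES6, HES7, HEYL and NRARP did not pass in either line, and HEY2 was below the filter at 3.86. NRARP, a feedback inhibitor that Notch switches on, was 4.38-fold higher in KYSE180 than in KYSE30 (2.13 ± 0.05, limma adjusted p = 8.13e-09), with group means of 9.49 in 180D, 9.27 in 180U, 7.29 in 30D and 7.19 in 30U. RBPJ itself was 1.96-fold lower in KYSE180 (-0.97 ± 0.05, adjusted p = 5.37e-07). DLK2, a Delta-like membrane protein, was higher in KYSE180 by 1.73 ± 0.07, while the ubiquitin ligase DTX4 was lower by -1.93 ± 0.10 and the gamma-secretase subunit PSENEN by -1.06 ± 0.05.

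Of 9 keratinocyte differentiation genes linked to Notch, 1 was higher and 2 lower in 30D, and 1 was higher and 1 lower in 180D. The shares over all genes were 8.42% higher and 8.12% lower in 30D, and 2.55% higher and 1.21% lower in 180D. KRT13, a keratin of the suprabasal esophageal lining, was lower in 30D (-1.04 ± 0.06, limma adjusted p = 0.000108), as was the cell cycle inhibitor CDKN1A (-0.95 ± 0.07, adjusted p = 0.000299). The gene called higher in 30D was FLG, which codes for filaggrin of cornified cells. It passed the filter through KYSE180, and its KYSE30 means lay below it, at 2.96 in 30D and 2.51 in 30U, so that call has no measured level behind it. In 180D FLG was higher, at 7.02 against 5.44 in 180U (1.58 ± 0.10, adjusted p = 0.000319). IVL, a precursor of the cornified envelope, was lower in 180D (-0.58 ± 0.11, adjusted p = 0.0394), a call lost in 11 of 16 alternatives (0.00624 to 0.156), among them the population block (0.0747) and 7 of the 8 fits without 1 array. All 9 genes were called between the lines, 6 higher and 3 lower in KYSE180, as were 67.1% of all genes tested. KRT4, another esophageal keratin, was higher in KYSE180 by 5.50 ± 0.10. In KYSE30 KRT4 was near the filter, at 4.54 in 30D and 4.92 in 30U. KRT1, also higher in KYSE180, was at 4.53 in 30D and 4.28 in 30U, and FLG was below the filter. The sizes of these differences are thus set against levels near or below the filter.

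Genes whose levels ran most like those of the called members were found by Pearson r over the 8 arrays after each line was centred on its mean. The points share the 4 parental populations and the D and U split, so these values only describe likeness. HEY1 ran most like PAIP1 (0.995) and SLC25A40 (0.993), and among pathway genes like CREBBP (0.967) and CDKN1A (0.946). MAML2 ran most like CABIN1 (0.993) and KIAA1217 (0.987), JAG1 like EIF5B (0.994) and NCLN (0.994), and DLL1 like AMD1 (0.990) and MAP3K5 (0.985). The nearest pathway genes were ADAM17 and HDAC1 for MAML2 (0.888 each), HES2 (0.922) and PSEN2 (0.911) for JAG1, and FLG (0.919) and PSENEN (0.849) for DLL1. FLG had KYSE30 means below the filter, at 2.96 in 30D and 2.51 in 30U, so its r rests in part on unmeasured levels.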

How the data were processed

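Per the submitters' processing notes, the authors made the deposited log2 expression values with RMA (background correction, quantile normalization and probe summary). The sources used here do not give a version. RMA makes arrays alike in distribution, which hides a change in total RNA per cell, and understates fold changes of dim genes. MicroRNA arrays were not used here.

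Of 54675 probe sets, 41091 had 1 gene symbol in the platform annotation, 1801 several, 11721 none and 62 were controls. Current symbols came by Entrez ID from a RefSeq gene table (GRCh38.p14), and promoters came from RefSeq too. Single-symbol probe sets with a mean at or above the 40th percentile (log2 4.46) were kept, and the brightest represented its gene. No detection calls were at hand, so the filter value stands in for background.

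All tests were two-sided and ran in limma 3.58.1 under R 4.3.3, by lmFit then eBayes. P-values were adjusted by Benjamini-Hochberg over all 14180 genes, with a threshold of 0.05. A fit of 4 group means gave the changes within lines and their difference, and an additive fit the change over both lines and the line difference. The script was tested on simulated data. D and U sublines of 1 parental population are paired by the labels. In KYSE180 these pairs cross the replicate numbers: 180D replicate 1 goes with 180U replicate 2. Deviations from group means correlated at -0.0228 in the KYSE30 pairs and 0.0203 in the KYSE180 pairs, where 2 pairs mirror each other. Alternatives were no filter, filters at the 20th and 60th percentile, the mean of all probe sets of a gene, the population block, an intensity trend, only the 4 arrays of a line, median-centred arrays and leaving out each array. Fitting each probe set by itself was added after the data were seen. Only 8 arrays limit the precision.

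The 10 genes and all lists were chosen with earlier results of these data known. Named from the other pathway genes were, in each comparison, up to 3 higher and 3 lower with the smallest p among those called, and up to 2 in each list, as well as the genes most alike in pattern.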

Additional observations from a re-analysis of the deposited data

Results flagged for a closer look

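The change between D and U sublines differed between the lines by direct test for 3 of the 10 genes, and each D minus U change was more positive in KYSE180 than in KYSE30. For HEY1 the changes were -0.53 in KYSE180 and -1.34 in KYSE30, a difference of 0.81 ± 0.09 (limma adjusted p = 0.00251). For MAML2 they were 0.22 and -0.66, a difference of 0.88 ± 0.20 (limma adjusted p = 0.0303, lost in 8 of 15 alternatives with 0.0028 to 0.0973, and 0.0836 with the population block). For DLL1 they were 0.40 and -0.01, a difference of 0.41 ± 0.10 (limma adjusted p = 0.043, lost in 11 of 15 alternatives with 0.0225 to 0.168, and 0.0694 with the block). Of the 66 other pathway genes, 5 were called with a more positive and 8 with a more negative change in KYSE180, where 6.94% of all genes were called more positive and 5.21% more negative. One of the 5, FLG, had both KYSE30 means below the filter, so no difference is given for it. The D minus U change was more positive in KYSE180 for KRT13 (1.20 ± 0.08) and CDKN1A (0.87 ± 0.09). It was more negative in KYSE180 for IVL (-0.88 ± 0.16), HES2 (-0.62 ± 0.07) and TLE1 (-0.52 ± 0.07). Limma adjusted p-values of these 5 genes, which rank by smallest p, were 0.00029 to 0.0148, and IVL lost its call in 3 of 15 alternatives (up to 0.0545). Groups of 2 arrays were too small to look for a single array far from its group.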

How the results depend on the processing

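Of 770 values of the 10 genes recomputed under other settings, 700 kept sign and side of the threshold, 15 that passed in neither fit changed sign, 47 lost and 8 gained a call, and none called changed sign. With 3 of 10 genes called in KYSE30, fits without 1 array called 1 to 3. With 2 called in KYSE180, 1 was called with no filter, with the mean of all probe sets, with the population block and with only the 4 arrays of the line, and 1 to 2 were called without 1 array. For the difference between the changes, with 3 called, 1 was called with no filter and with the block, and 1 to 3 without 1 array. Over both lines, with 1 called, the block left 0 by limma (HEY1 had an unadjusted p of 0.00173) and fits without 1 array 0 to 1. The block called 0 of all genes there, against 124, with 1659 at an unadjusted p under 0.05. Other counts over all genes ranged over the alternatives, with 834 to 3215 (2346 reported) in KYSE30, 195 to 1069 (532 reported) in KYSE180, 727 to 2700 (1723 reported) for the difference, 0 to 195 (124 reported) over both lines and 8294 to 10359 (9518 reported) between the lines. In KYSE180 no filter gave 311, the block 230, the intensity trend 1069 and the 4 arrays of the line 195. For the difference no filter gave 1142, the block 1011 and the trend 2700. For the changes between D and U, the block was fitted as a term for each population. With it the SE was larger for 7 of the 10 genes in each line. A consensus correlation within populations, -0.37, was used only for the difference between the lines. It came from the additive fit, which has no term for the difference between the changes. There the SE with the block was larger for 0 of the 10 genes, and 10359 genes were called against 9518. Leaving out arrays also lowers the number of samples. Beyond the calls named beside the results, the block ended no other call on the 10 genes.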
